A study of Mus musculus with 7 samples.

Results

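The 10 genes described here make up the core of the HIF (hypoxia-inducible factor) oxygen-sensing pathway: the alpha subunits Hif3a, Hif1a and Epas1, their partner Arnt, the prolyl hydroxylases Egln1, Egln2 and Egln3, the asparaginyl hydroxylase Hif1an, the ubiquitin ligase receptor Vhl and the hormone target Epo. They were found by gene symbol, all 10 of 10, among 24328 genes of a kidney RNA-seq series, and all 10 passed the filter of a mean of at least 5 normalized counts over the mice, as did 17283 genes. The set was selected on the measured values of the LBR-null against WT contrast, above all the normalized counts of Hif3a, which were known beforehand. For the 10 genes that contrast is therefore described and not tested. The groups were 3 C57BL/6J mice homozygous for the ic-J allele of Lbr (Lbric-J/ic-J, LBR-null mice 4001, 4002 and 4007) and 1 Lbr+/+ littermate (WT mouse 4009), all 4 weeks old and on standard chow, with no treatment named in the labels. LBR, the lamin B receptor, sits at the rim of the nucleus and helps to hold silent chromatin there, and the allele was carried in the whole animal, not in the kidney alone. Mice 4001, 4007 and 4009 had 2 libraries each and mouse 4002 had 1, all from poly(A) RNA of the right kidney.

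In cells with enough oxygen, prolyl hydroxylases mark the HIF alpha proteins, the VHL ubiquitin ligase binds the marked proteins, and they are degraded. When oxygen is short, alpha subunits last longer, pair with ARNT and switch on genes for glycolysis, angiogenesis, pH control and red cell formation. HIF1A and EPAS1 are the main activators. HIF3A has shorter forms that can bind the partners without activating and so oppose the other alpha subunits. Much of this control acts on protein stability, which RNA does not show. In the kidney, interstitial fibroblasts and pericytes make erythropoietin under EPAS1, and Egln3 is itself a HIF target.

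The promoters of the 4 members with the largest differences in level, and of the higher target Car9 and the lower target Ak4, are shown because HIF binds the letters ACGTG or GCGTG in DNA. Each line gives the 250 bases before the RefSeq transcription start (build GRCm38.p6, 5′ to 3′ in the direction of the gene), with ACGTG and GCGTG on either strand in capitals. On the other strand these motifs read CACGT and CACGC, and the letters CACGTG hold ACGTG on both strands.
Hif3a, chr7:17062428-17062677, minus strand: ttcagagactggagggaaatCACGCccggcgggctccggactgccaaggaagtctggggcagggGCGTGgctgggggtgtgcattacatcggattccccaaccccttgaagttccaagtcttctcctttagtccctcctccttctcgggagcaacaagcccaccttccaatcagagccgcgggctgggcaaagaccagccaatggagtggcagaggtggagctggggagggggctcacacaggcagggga
Hif1a, chr12:73907617-73907866, plus strand: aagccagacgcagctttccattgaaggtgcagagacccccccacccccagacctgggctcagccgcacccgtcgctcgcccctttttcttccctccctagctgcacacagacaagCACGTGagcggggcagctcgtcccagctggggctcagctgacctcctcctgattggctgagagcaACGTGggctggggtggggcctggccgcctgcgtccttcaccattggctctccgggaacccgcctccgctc
Egln1, chr8:124949255-124949504, minus strand: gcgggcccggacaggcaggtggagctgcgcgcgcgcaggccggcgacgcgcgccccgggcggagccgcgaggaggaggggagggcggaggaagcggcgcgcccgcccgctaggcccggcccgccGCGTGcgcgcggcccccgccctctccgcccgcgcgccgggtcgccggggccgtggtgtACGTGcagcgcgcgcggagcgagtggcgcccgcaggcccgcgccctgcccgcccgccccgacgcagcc
Egln3, chr12:54203875-54204124, minus strand: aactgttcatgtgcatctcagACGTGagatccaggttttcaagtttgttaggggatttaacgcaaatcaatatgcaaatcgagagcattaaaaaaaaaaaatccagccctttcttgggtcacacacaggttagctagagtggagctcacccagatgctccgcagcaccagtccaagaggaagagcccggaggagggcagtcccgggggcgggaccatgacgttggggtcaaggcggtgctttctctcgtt
Car9, chr4:43506776-43507025, plus strand: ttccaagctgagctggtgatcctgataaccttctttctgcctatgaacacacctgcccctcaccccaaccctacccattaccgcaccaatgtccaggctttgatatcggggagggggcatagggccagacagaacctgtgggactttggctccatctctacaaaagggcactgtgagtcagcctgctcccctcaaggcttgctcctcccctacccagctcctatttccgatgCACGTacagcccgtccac
Ak4, chr4:101419039-101419288, plus strand: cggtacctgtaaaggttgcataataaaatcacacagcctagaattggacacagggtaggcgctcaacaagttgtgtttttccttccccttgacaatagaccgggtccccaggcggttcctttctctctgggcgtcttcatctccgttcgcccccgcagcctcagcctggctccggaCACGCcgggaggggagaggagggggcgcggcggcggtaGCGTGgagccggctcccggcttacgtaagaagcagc

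The Hif3a promoter held the motif at 2 places, at positions -230 and -186, where -1 is the base before the start and a position is the first base of the motif. Hif1a held CACGTG at -135 and a further motif at -70. Egln1 held 2 motifs, Egln3 held 1 at its far end, Car9 held 1 at -18, and this start of Ak4 held 2. RefSeq windows of 300 bases (250 before to 50 after the start) were found for 9 of the 10 members, 10 windows in all since Egln2 has 2. Epas1 had none. The motif stood in 8 of these 10 windows (80.0%), against 43.8% of 32851 windows of all genes and 56.8% of the windows of genes tested. Among 57 windows of 38 HIF target genes it stood in 46 (80.7%). It was found in 16 of 21 windows of targets that were above WT in every LBR-null library and in 13 of 14 windows of targets that were below. Both motifs contain CG. The CG-rich composition described next was met by 80.0% of member and 75.4% of target windows, against 33.5% of all and 56.0% of those tested. Motif shares among windows of like composition were not compared. A match describes letters in the window and is not evidence of binding.

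The study sorts genes by CpG islands, so the same windows were read for base composition. This is a different measure, since the study also asked for island length and for experimentally found islands around the start. Its classes were not used here. A composition of at least 50% GC with an observed over expected CpG ratio above 0.6 was met by 8 of the 10 member windows, against 33.5% of all windows and 56.0% of those of genes tested. The Hif3a window had 63.7% GC but a CpG ratio of 0.47, and did not meet it. The other window that did not meet it was the second start of Egln2. Egln1 stood at the other end, with 86.0% GC and a ratio of 1.08.

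Reads on genes numbered 20694016 to 26333284 per library, and 1 read was worth between 0.787 and 1.15 normalized counts. Lbr had reads in every library, between 314 and 495 normalized counts in LBR-null libraries and 381 and 416 in WT, so its level does not check the genotype. The labels give no sex. Xist was at 65.3 in mouse 4002 and at 39.4 and 31.7 in the WT libraries, but between 5352 and 10163 in mice 4001 and 4007. Ddx3y on the Y chromosome was at 1516 in mouse 4002, at 1299 and 1269 in WT, at 49.4 and 39.2 in mouse 4007 and at 149 and 133 in mouse 4001. Mouse 4001 thus had reads of both genes, with Xist below and Ddx3y above the level in mouse 4007, and why was not tested. Without mouse 4001 the log2 difference of Hif3a, described next, was 3.92, that of Hif1a -0.55, that of Egln1 -0.44 and that of Egln3 0.56, while that of Epas1 was -0.16. Mouse 4002 against WT is the pair alike in both genes, and its difference is given beside that of the group for the genes described most fully. The series as analysed here holds 1 WT mouse, so what sets that mouse apart and what sets the genotype apart cannot be told apart.

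Hif3a transcripts were about 15 times as abundant in LBR-null as in WT kidneys, and no other member differed 2-fold. Hif3a stood at 1117 and 1199 normalized counts in the libraries of mouse 4001, 1149.6 in mouse 4002 and 1388 and 1385 in mouse 4007, against 93.7 and 71.5 in the WT libraries. Every LBR-null library was more than 10 times as high as either WT library, and the LBR-null mice lay close together. The mean was 1231 ± 134 (SD, n = 3 mice) against 82.6 in the WT mouse, a ratio of 14.9. On the scale of log2(normalized counts + 1), used for all differences here, LBR-null minus WT was 3.88 ± 0.15 (SD, n = 3 mice), and mouse 4002 alone gave 3.78. The values rest on 973 to 1520 reads per LBR-null library and on 119 and 79 reads in WT. Of 17283 genes tested, 24 had a higher difference. Hif3a (ENSMUSG00000004328) lies on the minus strand of chr7 from 17616856 to 17647776 in mm9, with 5 annotated transcripts and no overlapping gene in GENCODE M1. The files give 1 value per gene, so its long and short forms could not be told apart.

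**Figure D1:**
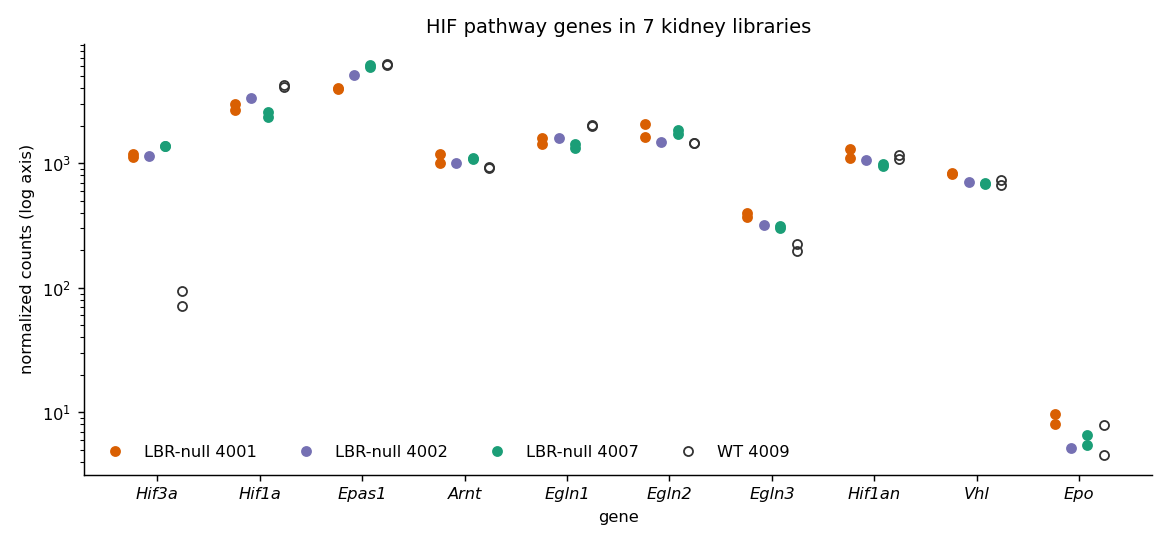
Normalized counts (log axis) of the 10 HIF pathway genes in the 7 kidney libraries, with 1 point per library, filled for LBR-null and open for WT. Hif3a lies between 1117 and 1388 in LBR-null libraries and at 71.5 and 93.7 in WT, while the other genes stay within a 2-fold range of WT on average.

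The main activators were lower or overlapped with WT. Hif1a was at 2702 and 2972 in mouse 4001, 3325 in mouse 4002 and 2573 and 2366 in mouse 4007, against 4117 and 4263 in WT. A lincRNA on the opposite strand overlaps 330 bases of its exons. All LBR-null libraries were below both WT libraries, by a log2 difference of -0.55 ± 0.21 (SD, n = 3 mice), and mouse 4002 was nearest to WT at -0.33. Epas1, the subunit that drives Epo, was at 3976 and 4021 in mouse 4001, 5116 in mouse 4002 and 5979 and 6202 in mouse 4007, against 6327 and 6124 in WT. Mouse 4007 overlapped with WT and mouse 4001 was lowest, and the difference of -0.32 ± 0.30 (SD, n = 3 mice; -0.28 in mouse 4002) was about as large as the spread between mice. Arnt, the partner of every alpha subunit, was at 1001 and 1195 in mouse 4001, 1003 in mouse 4002 and 1105 and 1076 in mouse 4007, against 941 and 909 in WT. The groups did not overlap, but the difference was small at 0.20 ± 0.07 (SD, n = 3 mice) and 0.12 in mouse 4002.

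Set per length of exon model, Hif3a moved from the edge to the middle of the pathway. In the WT mouse it was at 12.3 normalized counts per kb, ninth of the 10 genes, with Epo alone below it. In LBR-null mice it was at 183 ± 20.0 per kb (SD, n = 3 mice), sixth of the 10. In this unit the LBR-null order was Epas1 (955 ± 197), Egln2 (607 ± 71.3), Hif1a (488 ± 72.8), Egln1 (426 ± 30.8), Vhl (246 ± 25.4), Hif3a, Hif1an (163 ± 17.6), Arnt (133 ± 6.58), Egln3 (127 ± 15.4) and Epo (3.84 ± 1.13), each a mean ± SD over 3 mice. The ranges of the mice overlapped between Egln2 and Hif1a, Hif1a and Egln1, Hif3a and Hif1an, and Arnt and Egln3, and the order within a mouse changed between mice for each of these pairs except Hif1a and Egln1, where Hif1a was the higher in all 3 mice. Of the summed level per kb of the 3 alpha subunits, Hif3a made up 0.649% in the WT mouse and 12.3%, 10.1% and 11.7% in mice 4001, 4002 and 4007. The sum itself was 1896 per kb in WT and 1626 ± 193 (SD, n = 3 mice) in LBR-null mice. Lengths are those of GENCODE M1, and the annotation used for counting is not given in the sources used here.

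**Figure D2:**
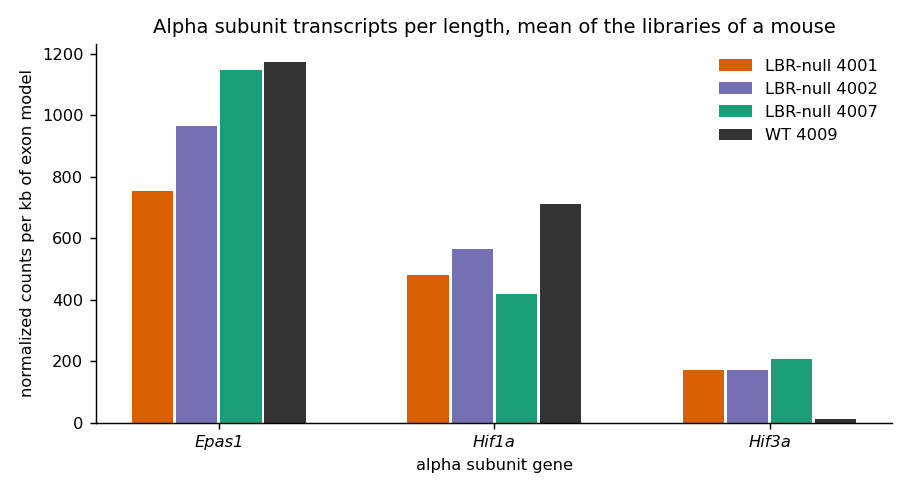
Normalized counts per kb of exon model (linear axis from 0) of Epas1, Hif1a and Hif3a, with 1 bar per mouse, the mean of its libraries. Hif3a is at 12.3 in the WT mouse and between 171 and 207 in the LBR-null mice, still below both other alpha subunits.

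The oxygen sensors did not share a direction. Egln1, the main prolyl hydroxylase in most tissues, was at 1603 and 1434 in mouse 4001, 1593 in mouse 4002 and 1336 and 1423 in mouse 4007, against 1984 and 2039 in WT. Every LBR-null library was lower, by -0.43 ± 0.11 (SD, n = 3 mice) on the log2 scale and by -0.34 in mouse 4002. Egln3, a hydroxylase that HIF induces, went the other way. It was at 399.6 and 370.0 in mouse 4001, 321 in mouse 4002 and 312 and 304 in mouse 4007, against 199 and 225 in WT, a log2 difference of 0.66 ± 0.17 (SD, n = 3 mice) with no overlap, and 0.59 in mouse 4002. Egln2 was at 2059 and 1629 in mouse 4001, 1472 in mouse 4002 and 1715 and 1853 in mouse 4007, against 1458 and 1457 in WT. Its groups did not overlap, but mouse 4002 was at the WT level (log2 difference 0.01) and the mean difference of 0.21 ± 0.18 (SD, n = 3 mice) was near the spread. On the opposite strand, 11 bases of Egln2 exons overlap Cyp2t4.

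Hif1an, whose protein blocks the coactivator site of HIF alpha, and Vhl overlapped with WT. Hif1an lay between 955 and 1300.0 in LBR-null libraries and at 1169 and 1091 in WT, a log2 difference of -0.07 ± 0.15 (SD, n = 3 mice) and of -0.10 in mouse 4002. Vhl lay between 676 and 833 against 669 and 730.0, a difference of 0.07 ± 0.15 (SD, n = 3 mice) and of 0.01 in mouse 4002. For neither gene was the difference larger than the spread between mice.

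Epo had few reads in every library. It was at 8.04 and 9.76 normalized counts in mouse 4001, 5.16 in mouse 4002 and 6.52 and 5.47 in mouse 4007, against 7.88 and 4.52 in WT. The log2 difference was 0.06 ± 0.35 (SD, n = 3 mice) and -0.23 in mouse 4002. These are 5 to 11 reads per library, 37 in all in LBR-null and 15 in WT libraries. The ratio of LBR-null to WT from reads was 1.10, with a 95% interval of 0.589 to 2.16 (exact binomial on the reads, counting error only). A difference was not detectable at this depth. The interval does not exclude a rise of about 2-fold or a fall to 0.589 of WT. In bulk tissue, fewer cells of a type and less RNA per cell cannot be told apart. The markers of the interstitial cells and pericytes among which Epo is made had a median log2 difference of -0.27 (-0.23, -0.44 and -0.07 in mice 4001, 4002 and 4007). Of all 8, Col1a1 was at least 2-fold lower in LBR-null mice (1186 ± 525 against 6661 in WT) and Dcn at least 2-fold higher (5799 ± 3015 against 2862), though Dcn was at the WT level in mouse 4002 (2749), and both are named after their values were seen. All 5 LBR-null libraries lay below both WT libraries for 4 of the 8 and above for 0, against 25.7% and 25.5% of all genes, and the summed level of the 8 was between 11593 and 19085 in LBR-null mice against 20496 in WT. Exons of Epo share 104 bases with Gnb2 on the same strand. Their part in the Epo value was not tested.

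Across the 10 members, 1 (Hif3a) was at least 2-fold higher by the ratio of mean levels and 0 were 2-fold lower, where 14.5% and 7.04% of all genes tested were. All LBR-null libraries were above both WT libraries for 4 members and below them for 2, against 25.5% and 25.7% of all genes. The median difference of the members was 0.07, against 0.01 over all genes tested.

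**Figure D3:**
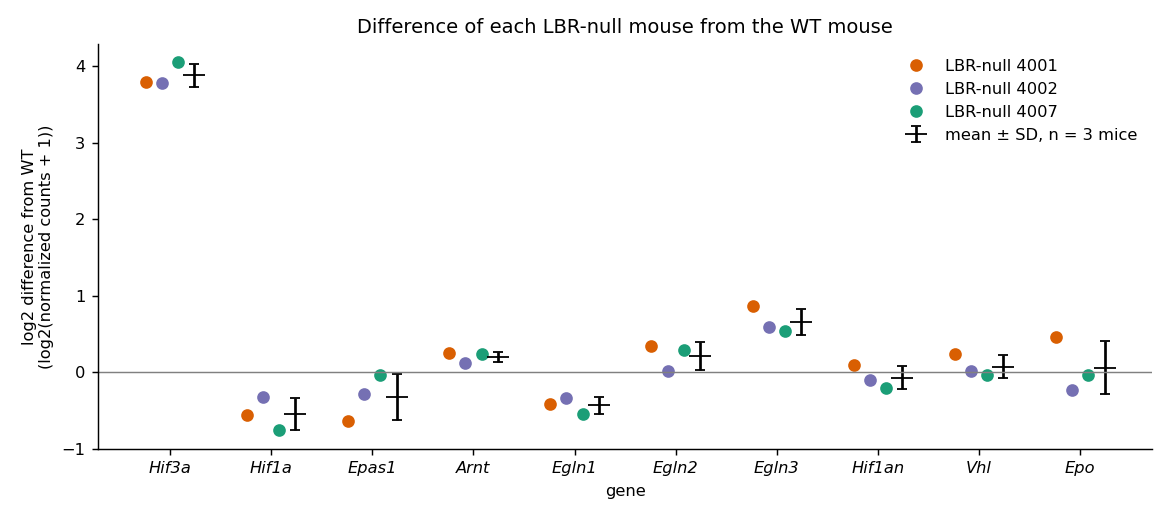
Difference of each LBR-null mouse from the WT mouse on the scale of log2(normalized counts + 1), with 1 colored point per mouse and the mean ± SD over 3 mice in black. Hif3a stands between 3.78 and 4.05 in all 3 mice, Hif1a and Egln1 below 0, Egln3 above 0, and Hif1an, Vhl and Epo on both sides of 0.

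Genes that work with the core members were read from a list of 12: the second ARNT gene, the ligase parts, the coactivators and other regulators. All 5 LBR-null libraries lay above the WT libraries for 3 of these genes and below them for 4, against 25.5% and 25.7% of all genes, and 0 differed 2-fold, where 14.5% of all genes were higher and 7.04% lower by that much. With limma, fitted across all 17283 genes with Benjamini-Hochberg adjustment, 0 of the 12 passed an adjusted p of 0.05, while an unadjusted p under 0.05 was reached by 2 upward and 0 downward, as by 10.7% and 8.05% of all genes. These p-values measure only the spread between these mice. Siah1a, a ligase that limits prolyl hydroxylases, was at 908 ± 72.2 (SD, n = 3 mice) against 507 in WT (log2 difference 0.84, standard error 0.24, adjusted p = 0.143 from limma). Cited2, which competes with HIF alpha for coactivators, was at 3652 ± 694 (SD, n = 3 mice) against 2188 (0.72, adjusted p = 0.266 from limma). Arnt2, the relative of Arnt, was at 849.9 ± 25.4 against 662 (0.36). The lower genes were the elongins of the VHL ligase, Tceb2 (-0.38) and Tceb1 (-0.32), followed by Siah2 (-0.30), a relative of Siah1a, and Cul2 was the fourth. In mouse 4002 alone the differences were 0.82 for Siah1a, 0.41 for Cited2 and 0.40 for Arnt2. The median over the 12 genes was 0.06.

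Known HIF target genes were read from 2 lists, 17 of glucose uptake and glycolysis and 30 of other functions. Eno1, an enolase gene of glycolysis, was listed at 0 in every library. A listed 0 need not mean silence, and 46 genes were tested. Of these, 9 were at least 2-fold higher and 6 at least 2-fold lower in LBR-null kidneys, 19.6% and 13.0%, against 14.5% and 7.04% of all genes. The share of all genes depends on the filter on low values: it was 22.7% higher and 8.80% lower with no filter and 8.09% and 6.74% at a mean of at least 20, while 9 and 6 targets were counted in both settings. For 17 of the 46, all 5 LBR-null libraries lay above the WT libraries, and for 13 (28.3%) below, against 25.5% and 25.7% of all genes. With limma, 0 of the 46 passed an adjusted p of 0.05 in either direction, as did 0 of all genes tested. An unadjusted p under 0.05 was reached by 14 targets upward (30.4%) and 6 downward (13.0%), as by 10.7% and 8.05% of all genes. The quasi-likelihood test of edgeR, run on the reads of each mouse, called 0 higher and 1 lower, where it called 0.00579% and 0.156% of all genes, and DESeq2 called 9 higher and 3 lower, where it called 3.22% and 3.51%. These counts moved with single mice. Without mouse 4007, 3 targets were 2-fold lower, as were 6.75% of all genes. In mouse 4002 alone 6 were 2-fold higher and 4 lower, as were 10.2% and 7.41% of all genes. limma called 5 targets higher and 4 lower without mouse 4001, where it called 3.29% and 4.22% of all genes, and 6 higher and 2 lower without mouse 4002, where it called 1.96% and 1.66%. The 1 WT mouse gives no spread of its own, so the fits assume that it varied like the LBR-null mice.

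The 30 targets outside glycolysis were spread widely, with a median log2 difference of 0.37, and a median of 0.62 in mouse 4001, 0.21 in mouse 4002 and 0.33 in mouse 4007. At least 2-fold higher were 8 of them (26.7%) and at least 2-fold lower 5 (16.7%), against 14.5% and 7.04% of all genes. Angptl4, a secreted inhibitor of lipoprotein lipase, was at 10843 and 9675 in mouse 4001, 4032 in mouse 4002 and 9345 and 9573 in mouse 4007, against 1100.1 and 1038 in WT. Mouse 4002 was far below the other LBR-null mice and still above WT. The log2 difference of the group was 2.77 (standard error 0.54, adjusted p = 0.101 from limma) and that of mouse 4002 was 1.91. Lox, which crosslinks collagen and elastin, was at 4161 and 4601 in mouse 4001, 3720 in mouse 4002 and 5890 and 5473 in mouse 4007, against 956 and 986 in WT. No LBR-null library came near WT (group difference 2.22, standard error 0.31, adjusted p = 0.0800 from limma), and mouse 4002 was at 1.94. Car9, a carbonic anhydrase of the cell surface and a classical HIF target, was at 302 and 324 in mouse 4001, 381 in mouse 4002 and 362 and 350.0 in mouse 4007, against 71.7 and 86.8 in WT. Here mouse 4002 was the highest, with a log2 difference of 2.25, and that of the group was 2.12 (standard error 0.29, adjusted p = 0.0795 from limma).

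Among the same 30 targets, Ak4, a mitochondrial adenylate kinase, had the largest difference downward. It was at 1056 and 1077 in mouse 4001, 806 in mouse 4002 and 794 and 799 in mouse 4007, against 6190 and 6218 in WT, about 7 times lower. The log2 difference was -2.81 (standard error 0.27, adjusted p = 0.0584 from limma) and -2.94 in mouse 4002, and Ak4 was the 1 target called by edgeR (adjusted p = 0.0335). Ccnd1, which drives entry into S phase, was at 1851 and 1822 in mouse 4001, 3811 in mouse 4002 and 1385 and 1303 in mouse 4007, against 5269 and 5250 in WT. Mouse 4002 lay between the other LBR-null mice and WT, at a log2 difference of -0.46 where that of the group was -1.32 (adjusted p = 0.270 from limma). Vegfa, the main angiogenic target, lay between 3000 and 4928 in LBR-null libraries and at 4396 and 4279 in WT, so the groups overlapped.

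The glycolysis targets had a median log2 difference of 0.03 over 16 genes tested, and 1 was 2-fold higher and 1 was 2-fold lower, 6.25% each, against 14.5% and 7.04% of all genes. Pdk1, which keeps pyruvate out of the mitochondria, was at 4055 and 4140 in mouse 4001, 2617 in mouse 4002 and 3090.1 and 3048 in mouse 4007, against 1396 and 1428 in WT (1.18, adjusted p = 0.128 from limma). Slc2a1, the glucose transporter GLUT1, was at 3941 ± 355 (SD, n = 3 mice) against 2372 (0.73, adjusted p = 0.194 from limma). Both were above WT in every LBR-null library. All LBR-null libraries lay below WT for 5 of the 16 (31.2%) and above for 2 (12.5%), against 25.7% and 25.5% of all genes. Ldha, which turns pyruvate into lactate, was at 7895 ± 1588 (SD, n = 3 mice) against 14154 (-0.86, adjusted p = 0.244 from limma), and Pgam1, a phosphoglycerate mutase, at 1245 ± 278 against 2595 (-1.08, adjusted p = 0.140 from limma). Pfkfb3, which activates phosphofructokinase, was at 770.1 ± 84.1 against 1133 (-0.56, adjusted p = 0.293 from limma). In mouse 4002 alone the differences were 0.89 for Pdk1, 0.87 for Slc2a1, -0.84 for Ldha, -0.75 for Pgam1 and -0.53 for Pfkfb3. Pgk1, the kinase upstream of Pgam1, had a mean difference of -0.72 and overlapped with WT through mouse 4001 (-0.07), while mice 4002 and 4007 were at 4859.6 and 4609.6 normalized counts against 9735 in WT. Ldha, Pgam1 and other glycolysis genes have processed copies in the genome, between which reads can be split.

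**Figure D4:**
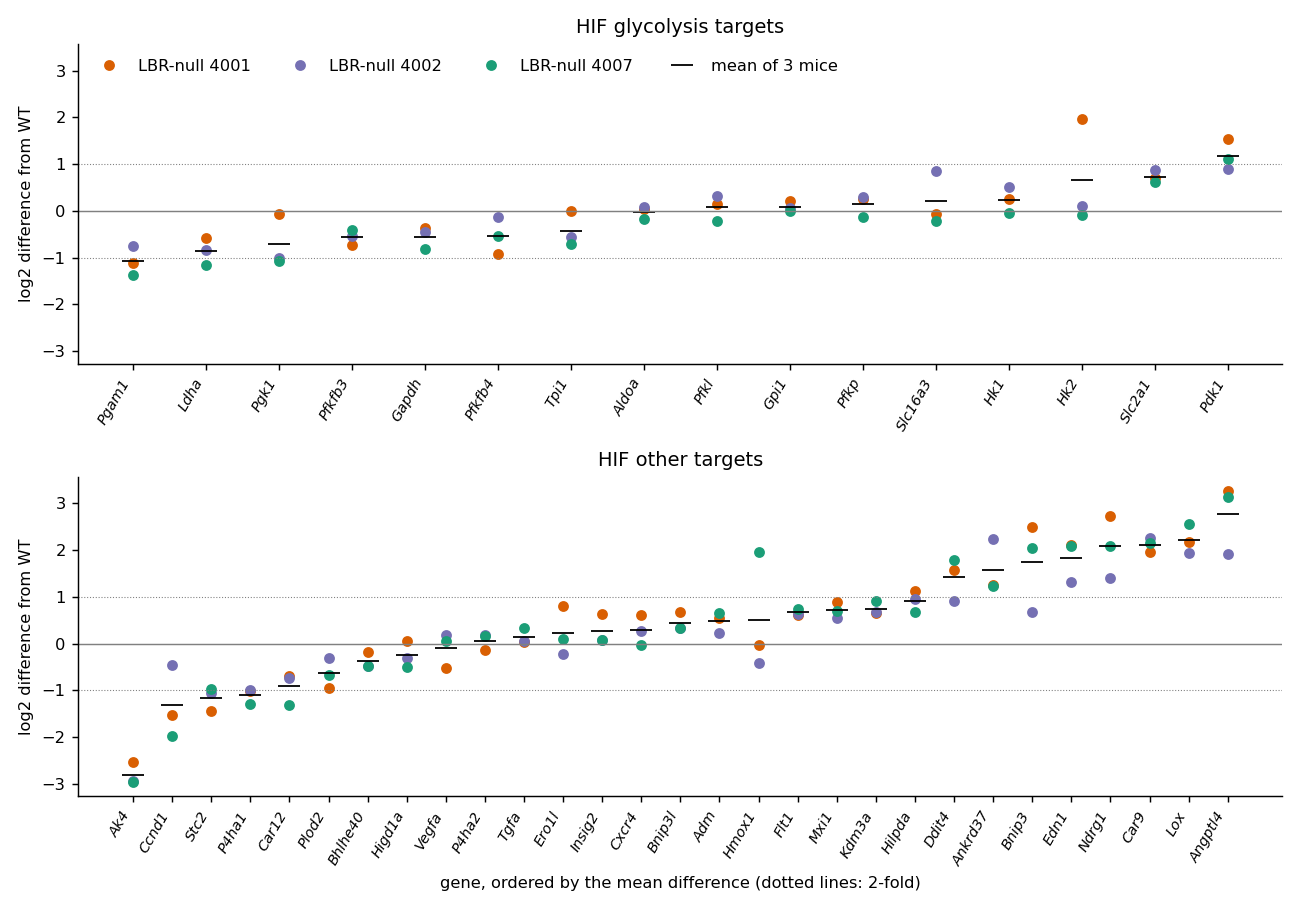
Difference of each LBR-null mouse from the WT mouse on the scale of log2(normalized counts + 1) for 16 glycolysis targets (top) and 29 other HIF targets (bottom), with 1 colored point per mouse and a black bar at the mean. Genes of both lists lie on both sides of 0, from Ak4 at -2.81 to Angptl4 at 2.77.

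Of 10 genes of EPO signaling and iron tested, 5 were above WT in every LBR-null library and 0 below, against 25.5% and 25.7% of all genes, and 3 were 2-fold higher, against 14.5%. Of these 3, Hamp overlapped with WT and was high in mouse 4001 alone, and in mouse 4002 none of the 3 reached 2-fold. With limma 0 passed an adjusted p of 0.05, and 2 reached an unadjusted p under 0.05 upward and 0 downward, against 10.7% and 8.05% of all genes. Trf, which carries iron in plasma, was at 5404 ± 2836 (SD, n = 3 mice) against 1874 (log2 difference 1.41, adjusted p = 0.218 from limma). Cp, the ferroxidase ceruloplasmin, was at 2727 ± 472 against 1212 (1.15, adjusted p = 0.118 from limma), and Cybrd1, a ferric reductase, at 76.9 ± 22.9 against 38.98 (0.92, adjusted p = 0.347 from limma). In mouse 4002 alone the differences were smaller, at 0.87 for Trf, 0.85 for Cp and 0.49 for Cybrd1. Epor, the receptor of EPO, overlapped with WT.

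Markers of cell types differed between the groups as well, and their counts stand against 25.5% of all genes above WT in every LBR-null library and 25.7% below. Of 8 proximal tubule markers, 7 were below and 1 was above WT in every LBR-null library, their median log2 difference was -1.65, and their summed level was between 104455 and 260904 in LBR-null mice against 531549 in WT. Of 7 neutrophil markers tested, 6 were above WT in every LBR-null library, and all 8 listed summed to between 398.9 and 2553 against 81.9. Ngp, Camp, Retnlg and Mmp8 were at 2.09, 0.452, 0.394 and 2.09 in WT and passed the filter through the LBR-null mice. Their place above WT was thus partly fixed by the filter. Of 6 red cell precursor markers tested, 4 were below and 1 was above, and the 7 found in the files summed to between 1736 and 2536 against 3949. Endothelial markers, of a cell type rich in Epas1, summed to between 21813 and 28513 in LBR-null mice against 29903 in WT, with 2 of 8 below and 0 above. Distal nephron markers summed to between 104036 and 191747 against 125027, with 1 of 8 above and 1 below. The lists of podocytes, macrophages, adipocytes and adrenal cortex had medians of -0.68, -0.71, -3.27 and 1.03. The neutrophil markers Camp and Retnlg were at 0 in 1 WT library each. The part of these shifts in the values of the members and targets was not tested.

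**Figure D5:**
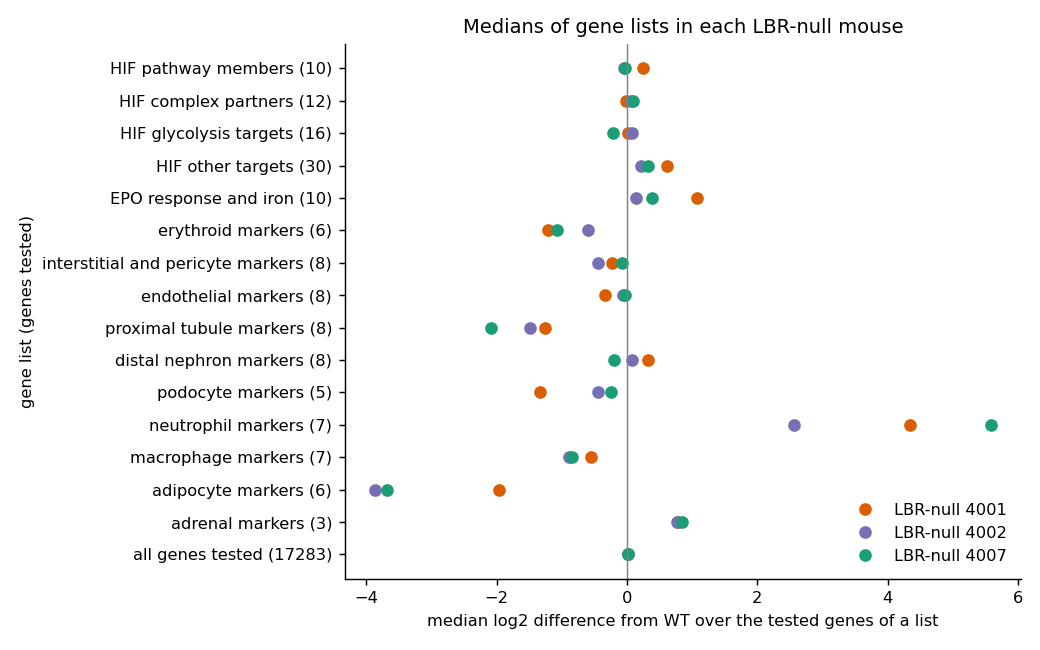
Median log2 difference from WT over the tested genes of each list, with 1 point per LBR-null mouse and the number of genes tested in brackets. HIF pathway members, partners and glycolysis targets lie near 0, while proximal tubule and adipocyte markers lie below 0 and neutrophil markers above 0 in all 3 mice.

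The genes whose pattern over the 7 libraries was most like that of Hif3a were sought by the root mean square difference of centered log2(normalized counts + 1). The nearest 5 of 17282 were Gm4847 (0.165), Scgb2b26 (0.167), 1700084D21Rik (0.191), 4930465K10Rik (0.313) and Lin28a (0.316). All 5 had at most 25.5 normalized counts in any library, and in WT all were listed at 0 except 1 library of 4930465K10Rik at 0.787, so that the likeness to Hif3a, a gene of over 1000 counts, depends on the added count of 1. Of the other members, Egln3 was nearest, at place 2949 with 1.48, and Hif1a farthest, at place 14120 with 2.05.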

How the data were processed

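Kidney poly(A) RNA was sequenced from 3 LBR-null mice and 1 WT mouse (7 libraries). Alignment was to mm9 by STAR 2.6.0, and the authors deposited, per library, a signal per gene symbol: read counts divided by the size factor of DESeq2 1.25.1. The counting program and annotation are not given in the sources used here. All values (100%) were whole multiples of 1 read within 0.01 read, so reads were recovered by division. Libraries were averaged within a mouse. How the second library of an animal was obtained is not stated, so the mouse was the replicate.

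limma 3.58.1 (trend) was run on log2(normalized counts + 1) of 4 mice, where the mean reached 5; edgeR 4.0.16 and DESeq2 1.42.0 on reads summed per mouse were alternatives, and all 3 were tested on simulated data. The 10 members and all gene lists were chosen with earlier results of these data known. Named in each pathway list were up to 3 genes with the highest and up to 3 with the lowest difference among those whose LBR-null libraries all lay on 1 side of both WT libraries, and the 5 genes most like Hif3a. For 1 gene that this rule names, values are not reported here; it is in the counts and not in the plot of targets. Genes were placed on GENCODE M1 models (NCBIM37, the assembly of mm9), and promoters came from RefSeq (GRCm38.p6). Alternatives were the pseudocount (0.5, 5), the filter (none, 20), scaling (TMM, equal totals), libraries left out, and a block.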

Additional observations from a re-analysis of the deposited data

Results flagged for a closer look

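Among 35 genes named here, the 5 LBR-null libraries were compared with each other for a library that stood far from the rest. Chance flags about 1 in 20 such groups, and libraries that share an animal are not independent. In 2 genes the single library of mouse 4002 stood apart. Angptl4 was at 4032 in it and between 9345 and 10843 in the other LBR-null libraries. Ccnd1 was at 3811 in it and between 1303 and 1851 in the others, nearer to the WT libraries. This animal also had low Xist and high Ddx3y levels, as WT had, and their part in these values was not tested.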

How the results depend on the processing

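The series as analysed here holds 1 WT mouse, and Epo is limited by its 5 to 11 reads per library. Scaling by TMM or to equal totals and both pseudocounts moved no member's difference by more than its spread between mice and no count of targets over 1.5 times. With no filter, or at a mean of at least 20, limma called 0 targets and 9 were 2-fold higher, but the share of all genes 2-fold higher went from 14.5% to 22.7% and 8.09%. Leaving out single mice or WT libraries gave 3.70 to 4.08 for Hif3a, lowest without the second and highest without the first WT library, and -0.24 to 0.45 for Epo, at the same settings. The first library of each mouse gave 3.68 for Hif3a. Mouse 4002 alone against WT, a setting chosen after seeing the data, gave 0.12 for Arnt, 0.01 for Egln2 and -0.33 for Hif1a. Leave-one-out counts of targets at least 2-fold lower ran from 3 (without mouse 4007, 6.75% of all genes) to 7 (without mouse 4001, 7.49%). Calls by limma ran from 0 to 6 targets higher (5 without mouse 4001, 6 without mouse 4002, where 3.29% and 1.96% of all genes were called) and from 0 to 4 lower (4 and 2, against 4.22% and 1.66%). Calls by edgeR and DESeq2 stand with the targets above, beside the shares of all genes called. The numbers in the labels count libraries of a mouse and pair no animals. With the number as a replicate block over 6 libraries, limma called 15 targets higher and 9 lower (13.9% and 12.4% of all genes), and without the block 16 and 10 (17.8% and 16.5%). Both treat libraries as replicates, which makes their p-values too small.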

Other observations

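A few pathway genes were far above WT in 1 LBR-null mouse and not in the others, and they were picked after their values were seen. Hk2, the hexokinase that HIF induces in glycolysis, was at 536 and 441 normalized counts in mouse 4001, 132 in mouse 4002 and 119 and 114 in mouse 4007, against 127 and 120.3 in WT. Hamp, the iron hormone hepcidin, was at 228.5 and 135 in mouse 4001, with the remaining LBR-null libraries between 14.0 and 26.7, against 18.9 and 32.6 in WT. Hmox1, which breaks down heme, was at 1707 and 1645 in mouse 4007, with the remaining LBR-null libraries between 324 and 424, against 447 and 413 in WT. In each case both libraries of that mouse were high. No explanation was tested.

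Ndrg1, a stress-response gene and HIF target outside the rule for named genes, was the most abundant of the 30 targets. It was at 135485 and 130075 in mouse 4001, 53269 in mouse 4002 and 84684 and 86475 in mouse 4007, against 19983 and 20084 in WT. Bnip3, which marks mitochondria for removal, had the same order of mice, at 13878 and 12376 in mouse 4001, 3703 in mouse 4002 and 9907 and 9174 in mouse 4007, against 2258 and 2374 in WT. Both genes were picked after their values were seen. Of the same 30 targets, 8 were at least 2-fold higher and 5 at least 2-fold lower. Among the lower were P4ha1 (log2 difference -1.1) and Stc2 (-1.16).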
